A study of Rattus norvegicus with 125 samples.

Results

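Cytochrome c oxidase closes the electron transport chain of mitochondria. It passes electrons from cytochrome c to oxygen, and phosphine (PH3), a fumigant gas, is known to inhibit it. Its catalytic core is encoded by mitochondrial DNA, and a shell of nuclear-encoded subunits regulates and stabilises the core. Several of these subunits come as a pair of isoforms from separate genes, one found in most tissues and one restricted to heart and skeletal muscle, to lung or to brown fat. The genes described here are 10 of these nuclear genes, taken by symbol from 13439 genes that had a probe set annotated with a single gene symbol. They are the subunit IV pair Cox4i1 and Cox4i2, Cox5a, Cox5b, the pair Cox6a1 and Cox6a2, the muscle-type Cox7a1, the Cox7a-related Cox7a2l, and the pair Cox8a and Cox8b. Each of the 10 was represented by 1 probe set of the 31139 on the array.

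RNA was measured on Affymetrix arrays of brain, heart, kidney, liver and lung from adult male Sprague-Dawley rats, with 65 arrays from 25 rats exposed to PH3 and 60 from 23 rats exposed to Air. The PH3 rats breathed 387 ppm for 40 min with the whole body exposed, a concentration-time product of 15480 ppm×min, which the labels call low, and the labels give no genotype beyond the strain. The times after exposure were 1, 3, 6 and 24 h for brain, heart and kidney. Liver had PH3 arrays alone at 3 h and both groups at 6 h, while lung had 3 h, 24 h and 1 week. Of the 33 groups, 28 held 4 rats, 3 PH3 groups held 3 (24 h heart, 3 h liver, 1 week lung) and 2 Air groups held 2 (24 h heart, 3 h lung). Separate rats are the replicates of a group.

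Values are log2 signals on which a difference of 1 is a doubling, given with the SD, and differences are given with the SE of the limma fit. Array medians lay between 5.08 and 5.52, and the 25th percentile of an array between 3.79 and 4.01, a low end at which a gene cannot be told from background. Marker genes matched the labelled organs: in Air arrays the mean of 8 cardiomyocyte markers was 12.89 in heart, that of 6 hepatocyte markers 13.38 in liver, that of 5 lung epithelial markers 13.06 in lung, that of 6 tubule markers 10.85 in kidney and that of 6 neuronal markers 10.20 in brain. The 10 genes were each measured by a different probe set, so levels are compared between arrays and not between genes. In samples of whole tissue, fewer cells of a type and less RNA per cell cannot be told apart.

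The first comparison asked how the isoforms are spread over the organs of Air rats. Cox6a2, Cox7a1 and Cox8b were highest in heart, second in lung and lower in brain, kidney and liver. Cox4i2 was highest in lung. The 5 widely expressed subunits Cox4i1, Cox5b, Cox6a1, Cox7a2l and Cox8a were bright in every organ and differed by 0.01 to 1.91 on the log2 scale between organs. Of 100 tests (10 genes in 10 pairs of organs), 90 were called at an adjusted p under 0.05 by limma over all genes.

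**Figure D1:**
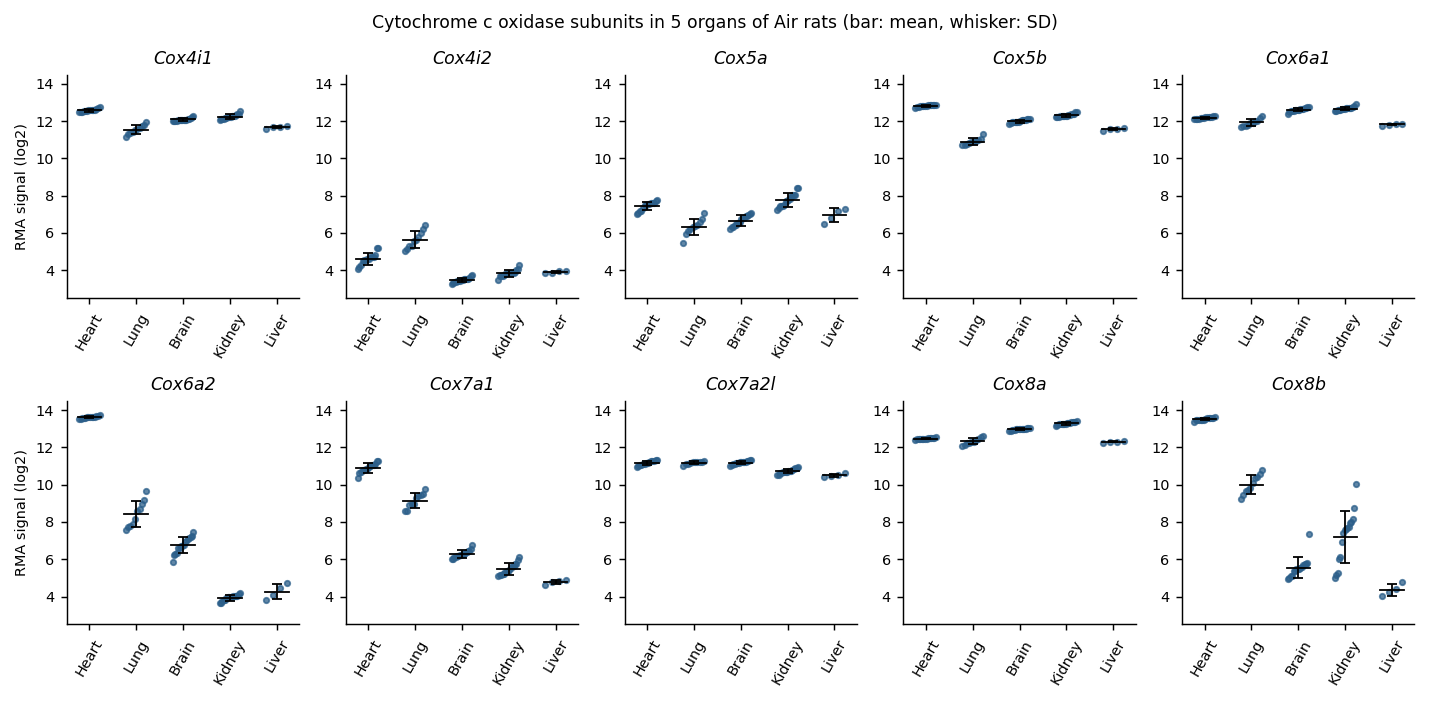
Signals of the 10 subunit genes on the Air arrays (y axis, log2 RMA signal) in heart (n = 14), lung (n = 10), brain (n = 16), kidney (n = 16) and liver (n = 4), with 1 point per array, the mean as a bar and the SD as a whisker. Cox6a2, Cox7a1 and Cox8b are highest in heart, Cox4i2 is highest in lung, and Cox8b spans 4.99 to 10.03 within kidney.

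That share is read against how much the organs differ in general. Over all 13439 genes, the percentage called was 76.8 for heart minus lung, 82.6 for heart minus brain, 75.1 for heart minus kidney, 65.1 for heart minus liver, 76.8 for lung minus brain, 70.7 for lung minus kidney, 70.7 for lung minus liver, 82.6 for brain minus kidney, 78.2 for brain minus liver and 60.9 for kidney minus liver. Of the 10 subunit genes, between 7 (lung minus liver) and 10 (heart minus kidney, heart minus liver, lung minus kidney) were called in a pair. Since most genes differ between organs, the call itself says little about these 10, and the sizes carry the description.

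Cox6a2 encodes the heart and skeletal muscle isoform of subunit VIa. Its lowest, median and highest Air signals were 13.50, 13.63 and 13.73 in heart, 7.57, 8.39 and 9.68 in lung, 5.84, 6.73 and 7.44 in brain, and 3.66, 3.98 and 4.18 in kidney. The 4 liver arrays read 4.09, 4.71, 4.48 and 3.79. Heart arrays lay above all others with no overlap, lung above brain, and brain above kidney and liver. The mean of the 8 cardiomyocyte markers was 7.61 in the same lungs, against 5.13 in brain (where Ryr2 alone was at 9.44), 4.002 in kidney and 3.97 in liver, and its part in the lung level was not tested. Cox6a2 was higher in heart than in kidney by 9.69 ± 0.14 (adjusted p = 1.21e-57). Against liver the difference was 9.35 ± 0.21, against brain 6.86 ± 0.14 and against lung 5.19 ± 0.16. Kidney and liver sit at the low end of the arrays, so these differences depend on the background level, and kidney minus liver was not called (-0.34 ± 0.21, adjusted p = 0.164).

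Cox8b, the muscle and brown fat isoform of subunit VIII, was next. Its lowest, median and highest Air signals were 13.37, 13.52 and 13.66 in heart, 9.24, 9.96 and 10.78 in lung, 4.99, 7.61 and 10.03 in kidney, and 4.92, 5.48 and 7.37 in brain. The 4 liver arrays read 4.27, 4.77, 4.01 and 4.38. Heart arrays overlapped with no other organ, whereas kidney overlapped with lung and with brain. Cox8b was higher in heart than in liver by 9.17 ± 0.44 (adjusted p = 4.23e-28), than in brain by 7.98 ± 0.29, than in kidney by 6.31 ± 0.29 and than in lung by 3.52 ± 0.32. All 10 organ pairs were called for this gene. Liver sits near the low end of the arrays, so differences from liver depend on the background level.

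Cox7a1, the heart and muscle isoform of subunit VIIa, had lowest, median and highest Air signals of 10.35, 10.90 and 11.27 in heart, 8.59, 9.13 and 9.75 in lung, 6.01, 6.26 and 6.76 in brain, and 5.08, 5.41 and 6.11 in kidney. The 4 liver arrays read 4.82, 4.77, 4.89 and 4.64. Its difference between heart and lung, 1.76 ± 0.11 (3.38-fold, adjusted p = 6.23e-22), was smaller than those of Cox6a2 and Cox8b in the same pair. Heart exceeded brain by 4.61 ± 0.10, kidney by 5.42 ± 0.10 and liver by 6.12 ± 0.16, and all 10 pairs were called. For the 3 heart-type genes together, 12 of 12 contrasts of heart with another organ were called with no overlap of arrays, where 37.9% (lung), 46.2% (brain), 34% (kidney) and 49.5% (liver) of all genes did not overlap with heart.

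The sequences upstream of these genes are shown because the members that share an organ pattern can be set beside one that does not. RefSeq windows of assembly GRCr8 were given for 8 of the 10 genes, all but Cox4i2 and Cox6a1. The 250 bases before the start of Cox6a2 (chr1:192219717-192219966, minus strand), Cox8b (chr1:205408274-205408523, minus strand) and Cox7a1 (chr1:94568966-94569215, plus strand) follow, with those of the widely expressed Cox8a (chr1:213833624-213833873, minus strand), each read 5′ to 3′ along its gene. Capitals mark matches, on either strand, to CAGCTG (a form of the E-box CANNTG), to the motif of the muscle factor MEF2, to CCGGAA (a core of sites for the ETS family) and to TATAAA.
Cox6a2: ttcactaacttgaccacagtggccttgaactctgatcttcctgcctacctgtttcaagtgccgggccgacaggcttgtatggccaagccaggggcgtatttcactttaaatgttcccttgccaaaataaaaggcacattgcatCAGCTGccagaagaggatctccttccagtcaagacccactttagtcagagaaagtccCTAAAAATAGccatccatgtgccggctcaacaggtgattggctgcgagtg
Cox8b: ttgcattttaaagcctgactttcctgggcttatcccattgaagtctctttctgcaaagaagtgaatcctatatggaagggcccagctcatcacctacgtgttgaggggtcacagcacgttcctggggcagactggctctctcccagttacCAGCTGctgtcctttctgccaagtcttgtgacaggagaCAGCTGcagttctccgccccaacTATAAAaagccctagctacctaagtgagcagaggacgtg
Cox7a1: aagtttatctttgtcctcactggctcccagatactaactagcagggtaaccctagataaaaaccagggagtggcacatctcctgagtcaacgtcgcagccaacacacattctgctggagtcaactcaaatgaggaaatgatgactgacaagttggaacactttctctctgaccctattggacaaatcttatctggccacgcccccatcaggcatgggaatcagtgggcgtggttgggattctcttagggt
Cox8a: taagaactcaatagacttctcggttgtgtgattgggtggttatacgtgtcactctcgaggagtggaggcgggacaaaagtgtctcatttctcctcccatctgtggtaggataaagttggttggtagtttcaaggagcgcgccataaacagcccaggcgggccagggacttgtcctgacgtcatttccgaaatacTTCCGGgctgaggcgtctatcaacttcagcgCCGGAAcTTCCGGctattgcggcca
The motifs were chosen after the windows had been read, so their counts are a description. CAGCTG occurred once before Cox6a2, starting 107 bases ahead of the start, at 2 places before Cox8b, 100 and 62 bases ahead, and also once before the widely expressed Cox4i1, 80 bases ahead, so 3 of the 8 windows held it. It lies in 12.0% of all 33469 windows of this length. The MEF2 motif occurred before Cox6a2, starting 50 bases ahead, and before no other member, and lies in 3.0% of windows. TATAAA occurred before Cox8b, 39 bases ahead, against 12.9% of windows. CCGGAA matched at 3 places before Cox8a and once each before Cox4i1, 145 bases ahead, and Cox5b, 14 bases ahead, so 3 of the 8 windows held it, and it lies in 12.6% of windows. The wider E-box CANNTG, which includes every CAGCTG match, lies in 65.5% of windows and was matched 4 times before Cox6a2, 2 times before Cox8b, and 1 time each before Cox4i1, Cox5b, Cox7a1, Cox7a2l and Cox8a. These letters say nothing of whether a factor binds there.

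Cox4i2 encodes the second isoform of subunit IV, known for its expression in lung and for its link to oxygen supply. Its lowest, median and highest Air signals were 5.02, 5.59 and 6.42 in lung, 4.08, 4.60 and 5.19 in heart, 3.26, 3.47 and 3.72 in brain, and 3.47, 3.85 and 4.27 in kidney. The 4 liver arrays read 3.83, 3.86, 3.95 and 3.96. Lung was higher than brain by 2.17 ± 0.11 (4.49-fold, adjusted p = 8.47e-28), than kidney by 1.80 ± 0.11 and than liver by 1.74 ± 0.16, and heart was lower than lung by 1.02 ± 0.11 (heart minus lung -1.02, adjusted p = 9.18e-13) with overlapping arrays. Brain, kidney and liver were at or under the low end of the arrays, so these differences depend on the background level.

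2 of the widely expressed subunits had the opposite order of heart and kidney. Cox8a, the isoform paired with Cox8b, averaged 12.48 ± 0.04 in heart (n = 14), 12.97 ± 0.05 in brain (n = 16), 13.30 ± 0.07 in kidney (n = 16), 12.34 ± 0.17 in lung (n = 10) and 12.29 ± 0.03 in liver (n = 4). It was lower in heart than in kidney by 0.82 ± 0.03 (heart minus kidney -0.82, adjusted p = 1.34e-32) and than in brain by 0.49 ± 0.03 (heart minus brain -0.49, adjusted p = 1.43e-21). Cox6a1, the isoform paired with Cox6a2, was lower in heart than in kidney and brain too, at 12.19 ± 0.05 in heart, 12.67 ± 0.10 in kidney and 12.62 ± 0.09 in brain. The mean log2 balance of Cox6a2 to Cox6a1 was 4.93 higher in heart than in lung, that of Cox8b to Cox8a 3.38 higher, and that of Cox4i2 to Cox4i1 differed by -2.07, heart minus lung. The size of a balance on its own depends on a pair of probe sets and was not read.

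The remaining subunits were brightest in heart, in kidney or about level. Cox5b, a zinc-binding subunit, averaged 12.82 ± 0.04 in heart, 12.32 ± 0.09 in kidney, 12.00 ± 0.08 in brain, 11.56 ± 0.05 in liver and 10.91 ± 0.18 in lung, and heart exceeded lung by 1.91 ± 0.04 (adjusted p = 4.64e-47), with all 10 pairs called. Cox4i1 averaged 12.59 ± 0.07 in heart, 12.24 ± 0.12 in kidney, 12.09 ± 0.07 in brain, 11.68 ± 0.07 in liver and 11.54 ± 0.24 in lung, where lung minus liver was not called (-0.14 ± 0.08, adjusted p = 0.0875). Cox7a2l, which takes part in the assembly of respiratory supercomplexes, differed least: brain, lung and heart averaged 11.19 ± 0.09, 11.18 ± 0.07 and 11.16 ± 0.12, and none of the 3 pairs among them was called. Kidney and liver were lower, at 10.72 ± 0.12 and 10.51 ± 0.09.

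Cox5a had a dim single-symbol probe set, with organ means of 6.33 (lung) to 7.76 (kidney). A brighter probe set annotated to Cox5a and to 2 other loci averaged 13.08 ± 0.07 in heart, 12.68 ± 0.08 in kidney, 12.35 ± 0.09 in brain, 11.90 ± 0.09 in liver and 11.73 ± 0.18 in lung. The probe sets disagreed on the order of heart and kidney, and the dim one was used by the rule. The other pairs not called were lung minus liver for Cox6a1 and Cox8a, brain minus kidney for Cox6a1, brain minus liver for Cox5a, and kidney minus liver for Cox4i2.

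The genes whose levels were most like those of each restricted isoform over the 60 Air arrays were found by Pearson's r. These arrays fall into 5 organs, so r describes organ patterns. For Cox6a2 they were Sspn (r = 0.986), Cacna1c (0.985) and Flnc (0.982). For Cox7a1 they were Ppp1r14c (0.982), Myh6 (0.975) and Tnni3 (0.974), for Cox8b Slain2 (0.970), Ift43 (0.969) and Des (0.967), and for Cox4i2 Dll4 (0.953), Nkg7 (0.948) and Siva1 (0.947). Myh6, Tnni3, Des and Flnc encode proteins of the heart or muscle contractile and cytoskeletal apparatus. In the organ where a member was highest, with group means removed, the 3 genes most like Cox6a2 (heart) were Uqcrc1 (r = 0.852), a subunit of complex III, Map3k4 (0.821) and Hspb7 (0.821). For Cox6a1 (kidney) they were Ndufb2 (0.914), a subunit of complex I, Nop10 (0.910) and Cdkn2aipnl (0.908), and for Cox5a (kidney) Slc25a28 (0.928), Mras (0.916) and Slc25a29 (0.914). For Cox4i2 (lung) they were Serinc2 (0.935), Frmd8 (0.927) and Cilk1 (0.924). For the other members the highest r was 0.881 for Cox8a (Cdk5rap2), 0.804 for Cox5b (Kdm1a), 0.759 for Cox4i1 (Sag), 0.752 for Cox7a2l (Asb8), 0.680 for Cox7a1 (Cyp4b1) and 0.679 for Cox8b (Gdf6). Within organs, likewise with group means removed, the 45 pairs of members were correlated at a median r of 0.608 in lung (21 arrays), 0.495 in kidney (32), 0.304 in brain (32), 0.084 in liver (11) and 0.011 in heart (29). The arrays of an organ share their RNA handling and their normalisation. The genes named as most like a member were picked for the highest r among all genes. The r that such a choice alone would give was not computed.

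Cox8b differed among kidney arrays far more than any other member. Its kidney signals spanned 4.73 to 9.06 in PH3 rats, with a median of 6.85, and 4.99 to 10.03 in Air rats, with a median of 7.61 (n = 16 each), so the groups overlapped widely. Ucp1, the uncoupling protein that defines brown fat, spanned 3.66 to 9.94 on the PH3 arrays and 4.29 to 10.45 on the Air arrays of kidney. It is 1 of 4 measured brown adipocyte markers, and relations were computed with it and not with that list. Of the 4 markers, 2 were below the 25th percentile in Air kidneys (the lowest Elovl3, at 3.26), and the list averaged 5.53. Cox8b followed Ucp1 from array to array, with r = 0.89 and rho = 0.83 over 32 arrays (permutation p = 1e-05 for each, the smallest that 100000 permutations give). The relation was found after the arrays had been seen, so that p is not independent of the choice. It was 0.88 without the 2 arrays farthest from the median, 0.90 with group means removed, 0.88 within PH3 and 0.90 within Air. Cox8b followed the mean of 4 white adipocyte markers about as closely in kidney (r = 0.87, rho = 0.86, 0.85 without the 2 farthest arrays, 0.86 with group means removed), a list that spanned 4.62 to 6.10 on the PH3 arrays and 4.77 to 6.21 on the Air arrays. Air rat 108 was highest in Cox8b and in Ucp1, with Cox8b at 10.03 and Ucp1 at 10.45.

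**Figure D2:**
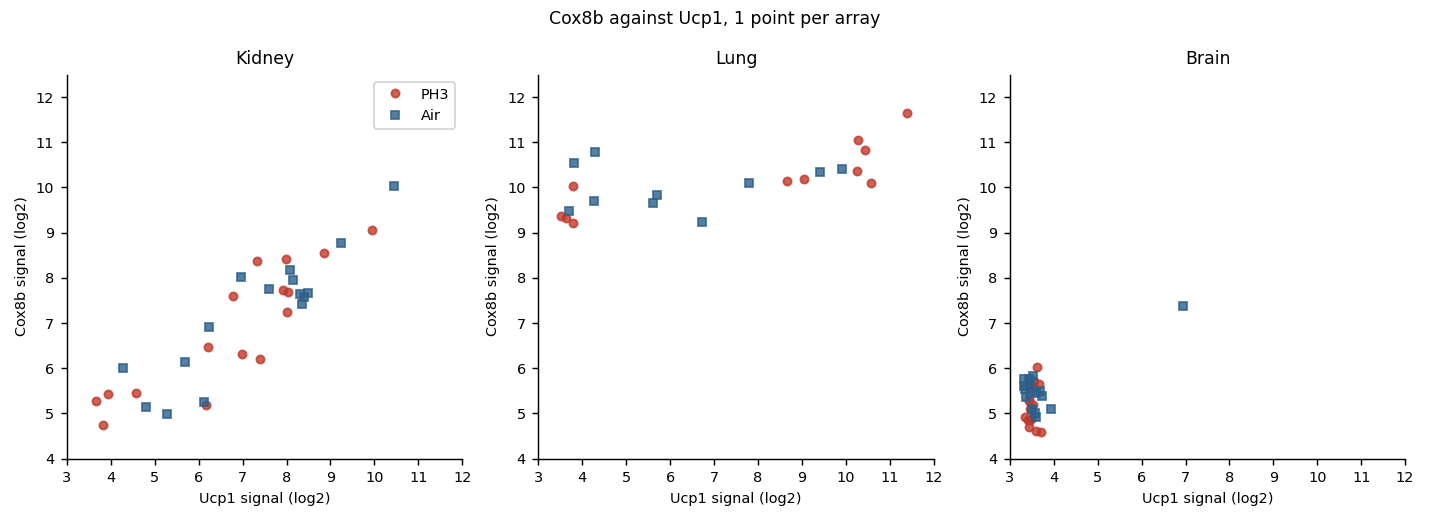
Cox8b signal (y axis, log2) against Ucp1 signal (x axis, log2) on the arrays of kidney, lung and brain, with circles for PH3 and squares for Air. In kidney the 2 genes rise together from array to array (r = 0.89), and in brain Air rat 96 stands apart with Cox8b at 7.37 and Ucp1 at 6.94.

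Such relations were computed for 60 combinations of Cox4i2, Cox6a2, Cox7a1 and Cox8b with Ucp1 and the cardiomyocyte, smooth muscle and pericyte, white adipocyte and skeletal muscle lists in brain, kidney and lung. After Benjamini-Hochberg adjustment within each coefficient, 8 passed for both r and rho. In kidney they were Cox8b with Ucp1 and with the white adipocyte list (adjusted p = 0.00015 for r and 0.0003 for rho in each). In lung, Cox6a2 followed the cardiomyocyte list (r = 0.82, rho = 0.77, adjusted p = 0.00015 and 0.00105, r = 0.76 without the 2 farthest arrays). Cox8b in lung followed the white adipocyte list (r = 0.82, rho = 0.79, adjusted p = 0.00015 and 0.00105, r = 0.73 without the 2 farthest). It also followed the cardiomyocyte list (r = 0.65, rho = 0.69, adjusted p = 0.0127 and 0.0055, r = 0.74 without the 2 farthest). In brain, Cox7a1 followed the smooth muscle and pericyte list (r = 0.53, rho = 0.49, adjusted p = 0.0127 and 0.0284, r = 0.49 without the 2 farthest) and the skeletal muscle list (r = 0.54, rho = 0.51, adjusted p = 0.0127 and 0.0229, r = 0.47 without the 2 farthest). Of the 4 skeletal muscle markers, 3 were below the 25th percentile in Air brains, and Acta1 averaged 7.33. Which of the 4 carried that relation was not tested. The remaining 1 of the 8 was Cox8b with Ucp1 in lung, where the PH3 arrays fell into 2 clusters of Ucp1. That pass comes from the pooled arrays and is not read as a relation, and no pooled value is given. Within PH3 r was 0.83, and within Air it was 0.17. In brain, Air rat 96 had Cox8b at 7.37 and Ucp1 at 6.94, while the other Air arrays had Cox8b between 4.92 and 5.82. In lung, Cox7a1 had r = -0.36 with the cardiomyocyte list (rho = -0.17, adjusted p = 0.196 and 0.607). The part of these markers in the organ levels of the isoforms was not tested.

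**Figure D3:**
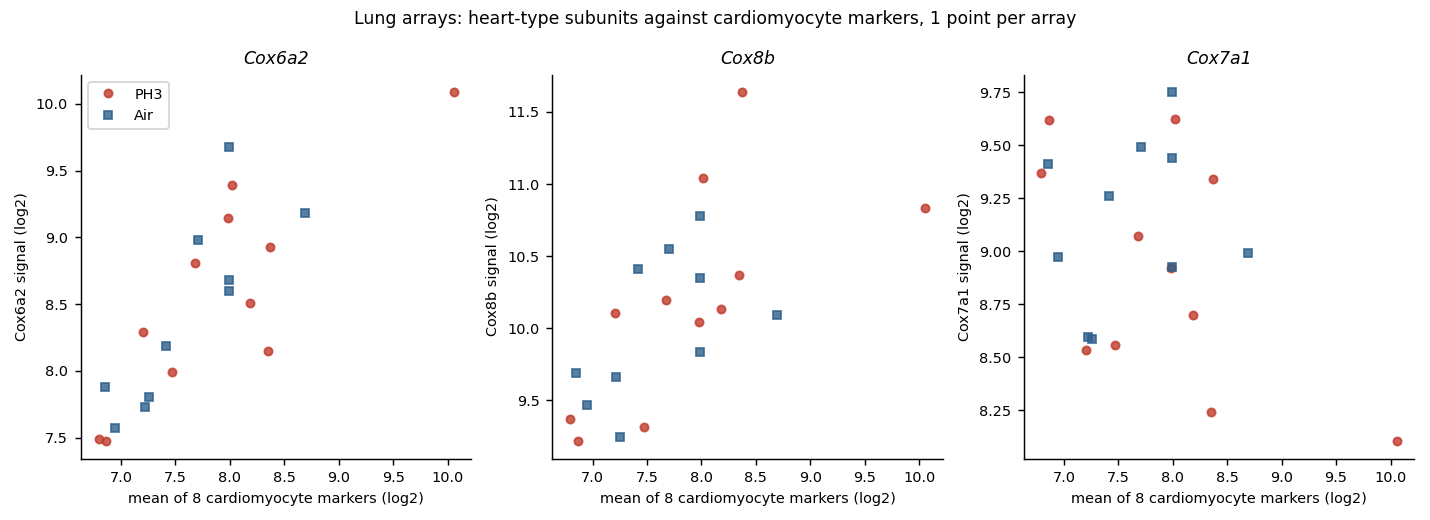
Signals of Cox6a2, Cox8b and Cox7a1 (y axis, log2) on the 21 lung arrays against the mean of 8 cardiomyocyte markers (x axis, log2), with circles for PH3 and squares for Air. Cox6a2 (r = 0.82) and Cox8b (r = 0.65) rise with the markers, and Cox7a1 has r = -0.36. PH3 rat 147 of 3 h lies at the far right.

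The second comparison asked whether PH3 exposure altered the subunit genes. None of the 160 tests (10 genes in 16 comparisons of PH3 with Air) was called by limma at an adjusted p under 0.05, and the lowest adjusted p was 0.168. An unadjusted p under 0.05 was reached in 10 tests, 6.25% of them, against 7.53% over all genes. The widely expressed subunits Cox4i1, Cox5b, Cox6a1, Cox7a2l and Cox8a differed between PH3 and Air by -0.19 to 0.19, and their 95% intervals stayed between -0.45 and 0.45. In heart the restricted isoforms Cox6a2, Cox7a1 and Cox8b differed by -0.16 to 0.27, with intervals between -0.54 and 0.57.

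**Figure D4:**
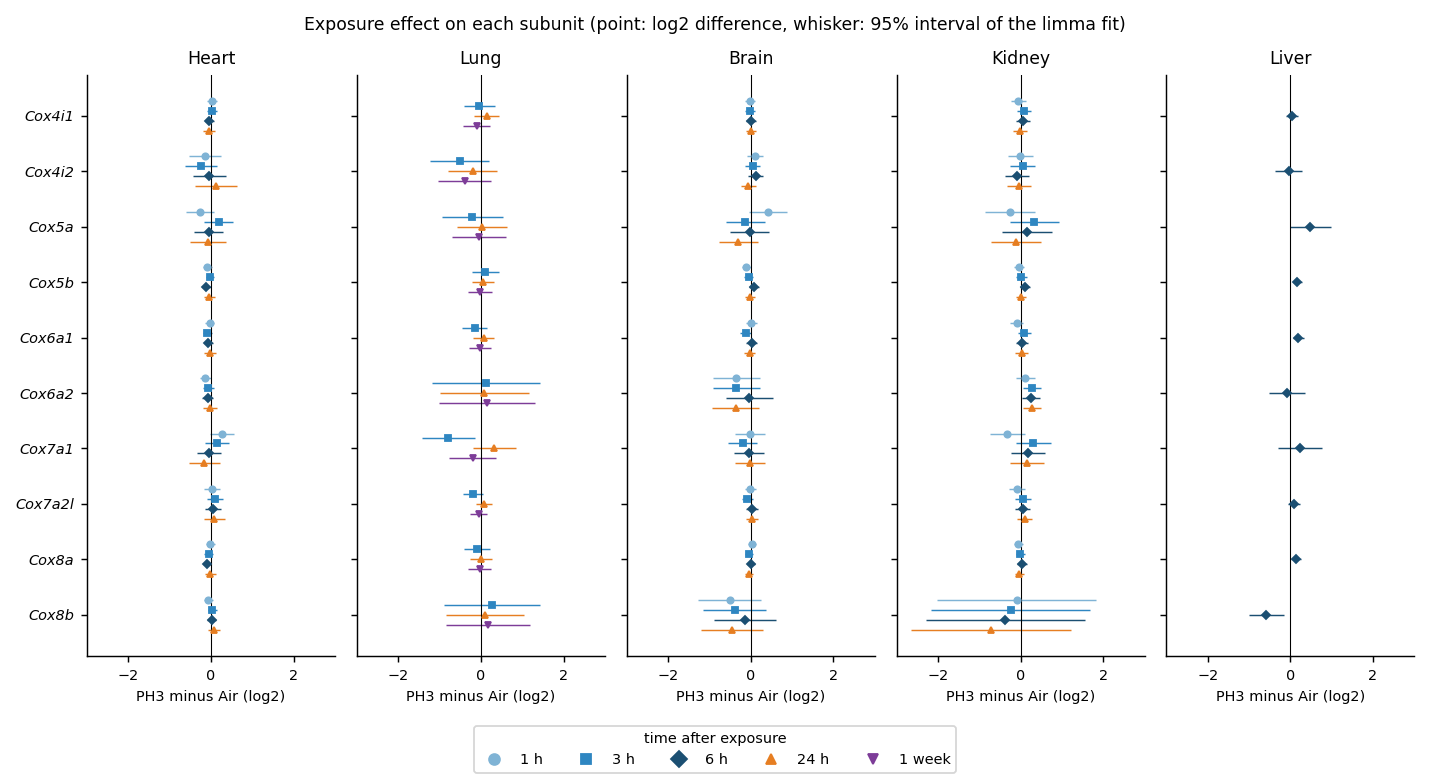
Difference of PH3 minus Air (x axis, log2) for the 10 subunit genes (rows) in heart, lung, brain, kidney and liver, with a marker for each time after exposure and the 95% interval of the limma fit as a whisker. The intervals of Cox8b in kidney are the widest, and those of Cox4i1, Cox5b, Cox6a1 and Cox8a are narrow in heart and brain.

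The background of calls over all genes was low as well. The percentage of genes called was 0.00744 in brain at 1, 3 and 6 h and 0.0298 at 24 h. In heart it was 0.0521 at 1 h, 0.238 at 3 h, 2.7 at 6 h and 0 at 24 h. In kidney it was 0.223, 0.104, 0.126 and 0.0149 at 1, 3, 6 and 24 h, in liver 0.238 at 6 h, and in lung 0.298 at 3 h, 0 at 24 h and 0 at 1 week. An F test of whether the exposure effect differed between times called 0 of 40 tests on the members (smallest adjusted p = 0.713), against 0% of all genes in brain, kidney and lung and 0.268% in heart. The members' count of 0 lies at this background.

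Liver at 6 h held 4 of the 10 low p-values. Cox6a1 read 12.03, 11.94, 12.02 and 12.06 in PH3 livers, against 11.87, 11.76, 11.86 and 11.81 in Air livers. Cox5b read 11.73, 11.71, 11.74 and 11.72 in PH3 livers, against 11.61, 11.57, 11.48 and 11.56 in Air livers. Cox8a read 12.44, 12.49, 12.38 and 12.43 in PH3 livers, against 12.26, 12.28, 12.32 and 12.32 in Air livers. For these 3 widely expressed subunits the lowest PH3 array was above the highest Air array. The differences were 0.19 ± 0.06 for Cox6a1 (adjusted p = 0.168), 0.17 ± 0.06 for Cox5b (adjusted p = 0.177) and 0.14 ± 0.05 for Cox8a (adjusted p = 0.251) by limma. Cox8b, at the low end of the arrays, read 3.80, 3.91, 3.49 and 3.90 in PH3 livers, against 4.27, 4.77, 4.01 and 4.38 in Air livers, all lower, with a difference of -0.58 ± 0.19 (adjusted p = 0.183 by limma). These 4 are to be read against all genes in liver at 6 h, of which 9.61% did not overlap and 14.1% had an unadjusted p under 0.05. The mean of 6 hepatocyte markers ranged from 13.38 to 13.47 in PH3 livers and 13.35 to 13.41 in Air livers. Beside Cox8b, the mean of 4 brown adipocyte markers ranged from 4.42 to 4.65 in PH3 livers and 4.54 to 4.70 in Air livers, and that of 4 skeletal muscle markers from 3.74 to 3.88 in PH3 and 3.81 to 5.80 in Air. Their part in the result was not tested. The balance of Cox8b to Cox8a was -8.66 ± 0.16 in PH3 livers and -7.94 ± 0.33 in Air livers (SD, n = 4 each), the 1 of 48 balance comparisons with no overlap.

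Heart at 6 h had the opposite sign for Cox5b, Cox6a1 and Cox8a, with no overlap of the groups for Cox5b alone. Cox5b read 12.68, 12.74, 12.76 and 12.73 in PH3 hearts, against 12.82, 12.83, 12.82 and 12.89 in Air hearts. The highest PH3 heart was below the lowest Air heart, a comparison in which 10.5% of all genes did not overlap, and the difference was -0.11 ± 0.05 (adjusted p = 0.295 by limma). Cox6a1 read 12.16, 12.22, 12.15 and 12.09 in PH3 hearts, against 12.20, 12.23, 12.23 and 12.24 in Air hearts, and Cox8a read 12.31, 12.46, 12.45 and 12.37 in PH3, against 12.46, 12.44, 12.52 and 12.54 in Air. Both genes overlapped, with differences of -0.07 ± 0.05 and -0.10 ± 0.05. In kidney at 6 h Cox5b read 12.35, 12.45, 12.31 and 12.30 in PH3, against 12.25, 12.22, 12.26 and 12.26 in Air, with no overlap, where 5.94% of all genes had none (0.10 ± 0.06, adjusted p = 0.753 by limma). After these opposite signs had been seen, the difference of the exposure effect between organs was tested over all genes at 6 h, in 1 fit of the brain, heart, kidney and liver arrays. The F test over the 4 organs called Cox5b alone (adjusted p = 0.0444), where 1.77% of all genes were called. The effect in liver minus that in heart was 0.28 ± 0.06 for Cox5b (adjusted p = 0.0107), 0.26 ± 0.07 for Cox6a1 (adjusted p = 0.0361) and 0.24 ± 0.06 for Cox8a (adjusted p = 0.0305) by limma, where 2.69% of all genes were called. These 3 calls rest on genes picked from the same arrays and on single rats. None was made without rat 128 or without rat 138, or with no trend of the variance, and without rat 126, 132, 141 or 156 Cox5b was the one left, and without rat 140 Cox5b and Cox8a were. All 3 were called without rat 134.

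**Figure D5:**
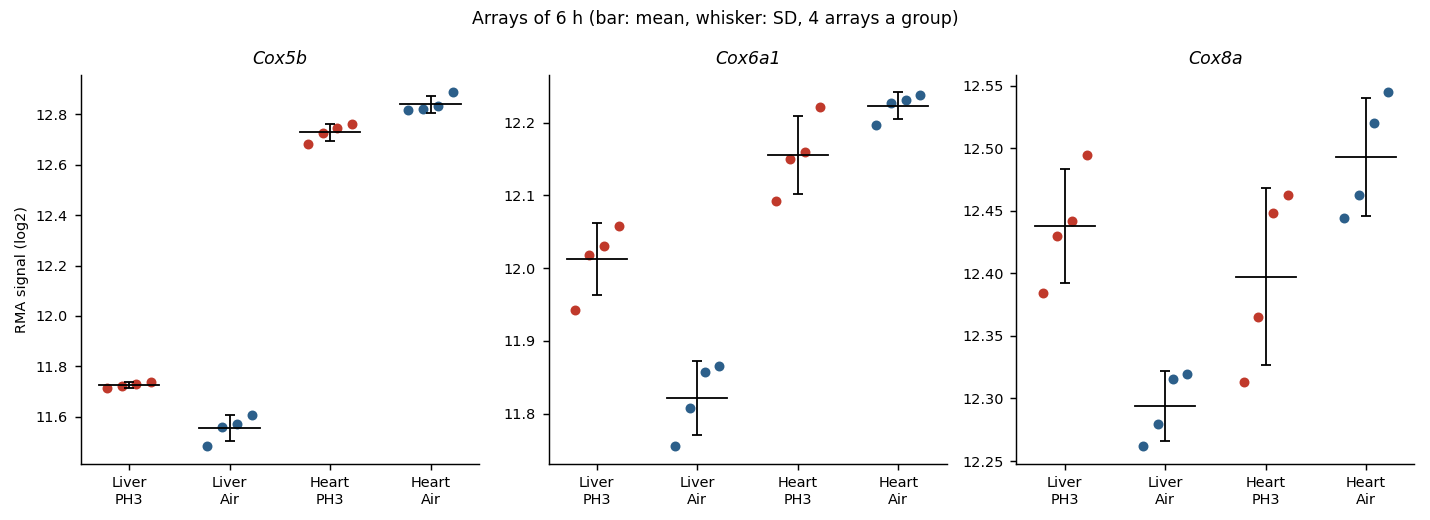
Signals of Cox5b, Cox6a1 and Cox8a (y axis, log2, a separate range for each gene) at 6 h in liver and heart, PH3 in red and Air in blue, 4 arrays a group, with the mean as a bar and the SD as a whisker. In liver the PH3 arrays of all 3 genes lie above the Air arrays, and in heart the PH3 arrays of Cox5b lie below them.

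In heart at 1 h, Cox6a2 read 13.53, 13.37, 13.59 and 13.38 in PH3 hearts, against 13.63, 13.52, 13.67 and 13.58 in Air hearts, with overlapping groups and a difference of -0.14 ± 0.07 (adjusted p = 0.616 by limma). In kidney, where Cox6a2 lies at the low end of the arrays, PH3 minus Air was 0.27 ± 0.11 at 3 h, 0.25 ± 0.11 at 6 h and 0.27 ± 0.11 at 24 h (adjusted p = 0.583, 0.539 and 1.00 by limma). At 3 h the arrays read 4.07, 4.04, 4.24 and 4.32 in PH3 kidneys, against 3.79, 3.79, 4.02 and 3.98 in Air kidneys, and the groups did not overlap. At 24 h they read 4.31, 4.23, 4.55 and 4.24 in PH3 kidneys, against 3.95, 4.18, 4.12 and 3.99 in Air kidneys, again with no overlap. Of all genes, 2.9% did not overlap in kidney at 3 h and 1.75% at 24 h. At 6 h the groups overlapped, with 4.12, 4.07, 3.85 and 4.22 in PH3 kidneys, against 3.91, 4.002, 3.66 and 3.67 in Air kidneys. All 3 differences lie near the low end of the arrays. The mean of 8 cardiomyocyte markers in these kidneys at 3 h was 4.03 to 4.18 in PH3 and 3.89 to 4.01 in Air, with 5 of the 8 higher in PH3. At 6 h it was 3.91 to 4.06 in PH3 and 3.99 to 4.11 in Air (1 of 8 higher), and at 24 h 3.91 to 4.20 in PH3 and 3.96 to 4.03 in Air (6 of 8 higher). The mean of 4 skeletal muscle markers was 3.68 to 4.15 in PH3 and 3.62 to 3.86 in Air at 3 h (1 of 4 higher), 3.92 to 4.07 in PH3 and 3.61 to 3.76 in Air at 6 h (4 of 4 higher, with no overlap), and 3.71 to 3.84 in PH3 and 3.70 to 3.92 in Air at 24 h (3 of 4 higher). Of all genes, 5.94% did not overlap in kidney at 6 h. In Air kidneys 3 of the 4 skeletal muscle markers and 4 of the 8 cardiomyocyte markers were below the 25th percentile, at the low end of the arrays. The part of both marker lists in the Cox6a2 values was not tested.

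The widest change in lung was that of Cox7a1 at 3 h. It read 8.11, 8.54, 8.70 and 8.24 in PH3 lungs, against 8.93 and 9.44 in the 2 Air lungs. The PH3 arrays lay below both Air arrays, where with 2 Air arrays 41.3% of all genes did not overlap, and the difference was -0.79 ± 0.31 (adjusted p = 0.353 by limma). With array weights in the fit it was -0.77 (adjusted p = 0.0133). Cox4i2 in the same lungs read 4.56, 5.24, 4.95 and 4.94 in PH3, against 5.55 and 5.32 in Air (-0.51 ± 0.34, adjusted p = 0.542 by limma). The cardiomyocyte list ranged from 7.20 to 10.06 in these PH3 lungs and read 7.99 in both Air lungs, with 6 of the 8 markers higher in PH3. The 4 skeletal muscle markers, all higher in PH3, averaged 4.40 to 8.96 in PH3 and 4.76 to 4.91 in Air, while the smooth muscle and pericyte list ranged from 7.79 to 8.01 in PH3 and 7.83 to 7.90 in Air. PH3 rat 147 held the highest value and the lowest Cox7a1, and without it the Cox7a1 difference was -0.69 (adjusted p = 0.609). The part of these markers in the result was not tested.

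Other genes of the complex were counted in the same fits, in which 0 to 2.7% of all genes were called in a comparison. Of the 6 measured genes among 12 further subunits, 0 of 96 tests were called, and the list medians lay between -0.09 and 0.10. Of 20 measured among 25 assembly factors, 1 of 320 tests was called, that of Cox10 in liver at 6 h, where 0.238% of all genes were called. Cox10, a farnesyltransferase in the synthesis of the heme of the complex, rose to 9.35 ± 0.35 in PH3 livers, against 8.17 ± 0.11 in Air livers (1.18 ± 0.19, adjusted p = 0.0323 by limma). The medians of the assembly factors ran from -0.09 in lung at 3 h to 0.15 in kidney at 3 h, with 0.13 in liver at 6 h and 0.11 in kidney at 6 h, against medians over all genes of -0.07, 0.01, 0.01 and 0.02. Of 3 measured regulators of the subunit IV isoforms, 0 of 48 tests were called. Probe sets annotated to several loci, outside the rule, differed between PH3 and Air by -0.05 to 0.15 for Cox7a2, -0.08 to 0.08 for Cox6c and -0.17 to 0.23 for the second Cox5a probe set. Each of these ranges had its highest value in liver at 6 h, as did the list median of the further subunits.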

How the data were processed

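The authors deposited log2 values, which the submitters' processing notes link to Affymetrix Expression Console, Partek and RMA (background correction, quantile normalisation and 1 summary per probe set), without versions. Tissue had been frozen and powdered before RNA extraction, and labelling started from the 3′ end, per the labels' protocols. Of 31139 probe sets on 125 arrays, 19069 carried 1 gene symbol in the platform annotation, 572 several and 11498 none. Each of 13439 genes was represented by its single-symbol probe set with the highest mean in the tissue, or over the 5 organ means for organ comparisons. Each of the 10 members had 1 such probe set.

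Each tissue was fitted in limma 3.58.1 (R 4.3.3) with a coefficient for every group, eBayes used a trend in the mean, and PH3 minus Air was tested at each time. A further fit compared organs over the Air arrays. Benjamini-Hochberg adjustment ran over all genes within each comparison, at a threshold of 0.05. PH3 and Air rats are different animals and were not paired. Organs of 1 rat are paired by the rat number, and 16 of 23 Air rats gave over 1 organ, so the rat as a replicate block was an alternative. Among the 6 h PH3 arrays, rat 135 is named for brain alone and rat 134 for the other organs, and the numbers were treated as different animals. Arrays have no read depth, so their number limits the precision. The liver arrays of PH3 at 3 h have no Air group and entered the fit alone. Blood, which the design text mentions, was not analysed here.

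Statistics with full values are given for members called and for members with an unadjusted p under 0.05, and the genes most like a member were the 3 with the highest Pearson's r. The members and lists were chosen with earlier results of these data known. The tests between organs at 6 h, the marker correlations and the promoter motifs were chosen after the values or sequences had been seen. The fits were tested on simulated data. Upstream sequences were taken from RefSeq windows of GRCr8. The files were read with data.table version 1.17.8. Correlations were computed with numpy 2.4.6 in Python 3.11.15, and plots were drawn with matplotlib 3.10.9.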

Additional observations from a re-analysis of the deposited data

Results flagged for a closer look

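A test of the PH3 effect in liver against that in heart at 6 h, added after the values had been seen, called 3 widely expressed subunits: 0.28 for Cox5b, 0.26 for Cox6a1 and 0.24 for Cox8a on the log2 scale, liver minus heart. Of all genes, 2.69% were called. The test was prompted by the same values, and none of the 3 was called without rat 128, without rat 138 or with no trend of the variance. For Cox5b every PH3 array lay above the Air arrays in liver, where 9.61% of all genes did not overlap. In heart every PH3 array lay below the Air arrays, where 10.5% of all genes did not overlap. In kidney at 6 h the PH3 arrays of Cox5b lay above the Air arrays as well, where 5.94% of all genes did not overlap. The kidney effect differed from the heart effect by 0.21. That pair was not tested apart from the F test over 4 organs (adjusted p = 0.0444 by limma), which called 1.77% of all genes.

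Each gene was looked at in the groups of 4 arrays and in the 10 Air lung arrays of all times. Of these 290 sets, 11 held 1 array far from the rest, a share below the 1 in 20 that chance gives. The 11 arrays are therefore listed only as a description. In brain these were Cox4i1 in Air rat 168 at 1 h (12.25, the others 12.03 to 12.06), Cox4i1 in Air rat 97 at 3 h (12.14, the others all at 12.06), Cox7a1 in Air rat 156 at 6 h (6.46, the others 6.13 to 6.16), Cox7a2l in PH3 rat 135 at 6 h (10.94, the others 11.22 to 11.25) and Cox8a in PH3 rat 91 at 24 h (12.84, the others 12.94 to 12.95). In heart they were Cox4i1 in Air rat 107 at 1 h (12.74, the others 12.56 to 12.58), Cox4i2 in Air rat 132 at 6 h (4.17, the others 4.57 to 4.62), Cox5a in PH3 rat 109 at 1 h (6.64, the others 7.29 to 7.41), Cox5a in PH3 rat 128 at 6 h (7.41, the others 7.58 to 7.61) and Cox5b in Air rat 168 at 1 h (12.8, the others 12.84 to 12.85). In kidney it was Cox7a2l in PH3 rat 91 at 24 h (10.94, the others 10.68 to 10.72).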

How the results depend on the processing

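The counts of called members kept to 0 in 15 of the 16 comparisons of PH3 with Air under every alternative run: the arrays of a comparison alone, no trend, the dimmest genes left out, array weights, median centring, a second quantile normalisation, all single-symbol probe sets, and each replicate left out. The exception was lung at 3 h, where array weights gave 1 called member, Cox7a1 (-0.77, adjusted p = 0.0133); the cause was not tested. No value reversed. With the rat as a replicate block, which pairs organs of 1 rat, the counts over organ pairs were the same, 7 to 10 of 10, at a correlation of 0.0035 within rats. The liver minus heart test at 6 h called 3 members, where 2.69% of all genes were called. The same 3 were called with the replicate block, median centring or a second quantile normalisation. The test called 0 with no trend and 0 to 3 with a rat left out. With heart and liver arrays alone 2 were called and Cox8a was not (adjusted p = 0.0599 by limma). The cause was not tested. For isoform balance no second pair of probe sets exists, since each member has 1, and a rat block between times could not be fitted because each rat of a tissue belongs to 1 time. Signals near 4 are at background, which limits Cox4i2 outside lung, Cox6a2 in kidney and liver, and Cox8b in liver.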

Other observations

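In heart, Ucp1 ranged from 3.65 to 11.84 on the PH3 arrays and from 3.42 to 12.10 on the Air arrays, while Cox8b stayed between 13.41 and 13.62 in PH3 and between 13.37 and 13.66 in Air. The highest signal of any probe set on a heart array was 14.05, and an upper limit of the signal was not tested. Of the 4 measured brown adipocyte markers, 2 were below the 25th percentile in Air hearts, and the list averaged 6.45. Cidea was the highest of them, with a mean of 11.19 and a range of 10.67 to 12.02 in Air hearts. In lung, Acta1 was at 10.10 in PH3 rat 147 and 10.89 in PH3 rat 148 at 3 h and at 10.47 in PH3 rat 155 at 24 h, and the other lung arrays were between 4.09 and 6.89. The 3 PH3 liver arrays of 3 h, which have no Air group, read 11.55, 11.66 and 11.69 for Cox5b, 11.81, 11.92 and 12.02 for Cox6a1, and 12.26, 12.38 and 12.43 for Cox8a.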
